A study of Mus musculus with 6 samples.

Results

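Hnf4a, Foxa1, Foxa2, Foxa3, Cebpa, Cebpb, Onecut1, Onecut2 and Prox1 encode the transcription factors that specify and maintain hepatocytes, the parenchymal cells of the liver. These 9 genes were taken by name from a table of raw counts for 15565 genes, and were chosen with earlier results of these data known. All 9 were in the table and all 9 were expressed well enough to be tested. The study compared hepatocytes of high Tert expression, TERT(High), with hepatocytes of low Tert expression, TERT(Low). Tert encodes the catalytic subunit of telomerase. Both kinds of cells were sorted from each of 3 C57BL/6 mice aged 2 months, after collagenase perfusion of the liver. Every mouse, and so every library of either group, carried CreERT2, a tamoxifen-inducible recombinase, at 1 Tert allele and a Cre-dependent Tomato reporter at 1 R26 allele, written Tert(CreERT2/+); R26(LSL-Tomato/+). No mouse without these alleles was in the design, and the labels do not state which signal was used for the sort. Levels are counts per 1000000 counts of a library scaled by TMM (CPM), a scaling that aligns the bulk of genes between libraries. Fold changes divide TERT(High) by TERT(Low). Each has a standard error (SE) on the log2 scale, from edgeR's quasi-likelihood test and p adjusted by Benjamini-Hochberg over all 13288 tested genes.

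As background, HNF4A is a nuclear receptor that occupies the regulatory regions of much of the liver programme. The FOXA proteins are forkhead pioneer factors that open chromatin during liver specification. C/EBP alpha and beta are leucine zipper factors of hepatocyte metabolism, with C/EBP beta the form that responds to injury and cytokines. ONECUT1, also named HNF6, and ONECUT2 carry a cut domain and a homeodomain and act in hepatocyte and bile duct development. PROX1 is a homeodomain protein that is needed for hepatocyte migration in the embryonic liver and that can repress HNF4A targets. Outside hepatocytes PROX1 is the master regulator of lymphatic endothelium.

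Library totals ran between 53585174 and 64065266 counts in TERT(High) cells and between 55355819 and 76164917 counts in TERT(Low) cells. For Tert the TERT(High) libraries held 38, 33 and 30 counts in mice 1, 2 and 3, against 21, 21 and 12 counts in TERT(Low) cells, and the gene did not pass the test (adjusted p = 0.249). The hepatocyte marker Alb, which encodes albumin, had 83330 ± 6153 CPM in TERT(High) cells, against 62650 ± 12102 in TERT(Low) cells (SD, n = 3 each). Alb did not pass the test (adjusted p = 0.240 by edgeR), and hepatocyte markers did not share a direction. Apoa1 averaged 9112 ± 762 CPM in TERT(High) cells, against 13247 ± 1419 in TERT(Low) cells, and Ttr was also lower. Of 40 tested hepatocyte target genes, a list that holds these 3, 18 had log2 fold changes above 0. Among bile duct and progenitor markers 13 of 19 were in the table, with a summed level of 38.8 to 54.9 CPM in TERT(High) and 48.0 to 63.8 CPM in TERT(Low) libraries. Marker RNA of other cells was low but uneven. The 16 stellate cell markers summed to 148 CPM in the TERT(High) library of mouse 1 and to 6.82 to 16.6 CPM in the other 5 libraries. The 15 macrophage markers summed to 128 CPM in TERT(High) cells of mouse 3 and to 59.6 CPM in its TERT(Low) cells, and to 20.1 to 25.2 CPM in the other 4 libraries. The erythroid markers summed to 208 CPM in the TERT(High) library of mouse 1 and to 18.7 to 62.4 CPM elsewhere. The 8 neutrophil markers in the table summed to 5.22 to 12.4 CPM in TERT(High) and 4.796 to 11.6 CPM in TERT(Low) libraries. Of the 7 tested, 5 had TERT(High) values wholly above their TERT(Low) values and 1 wholly below, with a median log2 fold change of 2.12. Among all tested genes 17.5% lay wholly above and 15.9% wholly below. By edgeR 0 of the 7 passed, 5 had an unadjusted p under 0.05, and DESeq2 called 2 higher and 1 lower. The shares over all tested genes were 28.7% with an unadjusted p under 0.05, and 13.6% higher and 11.3% lower by DESeq2. S100a9, a calcium-binding protein of neutrophils, was at 1.57 ± 0.74 CPM in TERT(High) cells, against 0.362 ± 0.226 in TERT(Low) cells. Cxcr2, the most abundant marker of that list, went the other way, at 3.25 ± 0.92 CPM in TERT(High) cells, against 6.72 ± 3.21 in TERT(Low) cells. Its log2 fold change was -1.05 (SE 0.38; adjusted p = 0.127 by edgeR).

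Prox1 and Onecut1 rose about 3-fold in TERT(High) cells, and no factor fell. Of the 9 factors, 2 were higher by edgeR at an adjusted p under 0.05, 0 were lower and 7 did not pass. Among all tested genes 8.14% passed, 4.43% as higher and 3.71% as lower. With the mouse as a block the same 2 factors passed, against 5.43% of all genes higher. Onecut2 was the third to pass by limma-voom (10.3% of all genes higher), by DESeq2 with the block (15.4%) and with a filter of 1 CPM in every library (10.9%). Onecut2 missed the threshold, although its TERT(High) values lay wholly above its TERT(Low) values. That separation held for 3 of the 9 factors, Prox1, Onecut1 and Onecut2, and for 17.5% of all tested genes. The other 6 factors overlapped between the groups. The median log2 fold change was 0.61 over the 9 factors and -0.01 over all tested genes. After a correction for transcript length and GC content, described below, it was 0.22 over the 9 factors and 0.01 over all tested genes. In bulk RNA from sorted cells, a change in the number of cells that express a gene and a change in RNA per cell cannot be told apart.

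**Figure D1:**
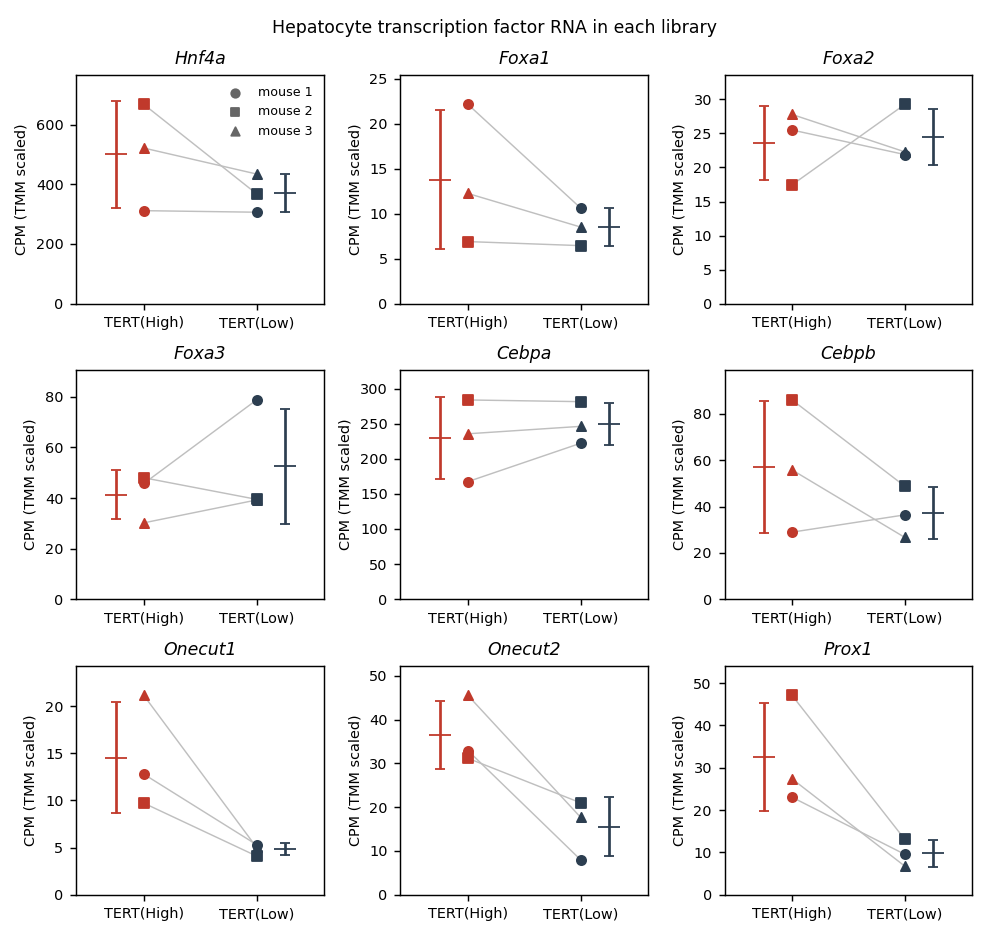
CPM (linear axis from 0, a separate scale for each gene) of the 9 factors in TERT(High) and TERT(Low) libraries, with grey lines joining the libraries of a mouse and bars for mean ± SD (n = 3 each). Onecut1, Onecut2 and Prox1 separate the groups; the other 6 factors overlap.

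Prox1 had the largest log2 fold change of the 9 in the reported fit. Onecut1 exceeded it after a correction for transcript length and GC content (1.40 for Onecut1, 1.07 for Prox1). The same held without the TERT(High) library of mouse 2 (1.77 and 1.34) or the TERT(Low) library of mouse 3 (1.63 and 1.52). It also held without both libraries of mouse 2 (1.71 and 1.64). Prox1 had 23.0, 47.1 and 27.4 CPM in TERT(High) cells of mice 1, 2 and 3, against 9.55, 13.1 and 6.75 CPM in TERT(Low) cells. Every TERT(High) library was above every TERT(Low) library, and the lowest TERT(High) value belonged to mouse 1. The means were 32.5 ± 12.8 CPM in TERT(High) cells, against 9.79 ± 3.17 in TERT(Low) cells (SD, n = 3 each), a ratio of 3.32. On the log2 scale the fold change was 1.73 (SE 0.36; adjusted p = 0.0392 by edgeR), and 1.27, 1.85 and 2.02 within mice 1, 2 and 3. Prox1 (Entrez gene 19130) lies on the minus strand of chromosome 1, 190118035 to 190170827 on GRCm38, with 5 exons in the transcript of longest coding sequence. Its 5′ part overlaps the antisense genes Prox1os and Gm28172, by 419 and 964 nt.

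Since Prox1 is also a gene of lymphatic endothelium, endothelial markers are given beside it. Of 16 endothelial markers 4 rose and 0 fell by edgeR, and DESeq2 called 7 higher and 0 lower. The shares called higher over all tested genes were 4.43% by edgeR and 13.6% by DESeq2. Of the 16, 14 had log2 fold changes above 0, 9 had TERT(High) values wholly above their TERT(Low) values and 1 wholly below. Over all tested genes those shares were 49.2%, 17.5% and 15.9%. The median of the 16 endothelial markers was 0.97, or 0.75 after the length and GC correction. The summed level of these markers was 62.8 to 104 CPM in TERT(High) and 44.5 to 57.8 CPM in TERT(Low) libraries. Flt4, a lymphatic growth factor receptor that liver sinusoids also express, averaged 5.48 ± 1.95 CPM in TERT(High) cells, against 1.56 ± 0.61 in TERT(Low) cells. Lyve1, a hyaluronan receptor of both vessel types, averaged 2.72 ± 0.89 CPM in TERT(High) cells, against 0.988 ± 0.124 in TERT(Low) cells. Both passed the test, with edgeR adjusted p of 0.0498 for Flt4 and 0.0452 for Lyve1, and Flt4 did not pass with the mouse as a block (adjusted p = 0.0668). Kdr, the main receptor for vascular endothelial growth factor, and Dnase1l3, a secreted nuclease of sinusoids, also rose, Kdr by 1.37 (SE 0.19) and Dnase1l3 by 1.13 (SE 0.25) on the log2 scale. The part of endothelial RNA in the Prox1 difference was not tested.

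Onecut1 had 12.8, 9.71 and 21.1 CPM in TERT(High) cells of mice 1, 2 and 3, against 5.31, 4.11 and 5.03 CPM in TERT(Low) cells. The TERT(Low) values lay close together, and the highest TERT(High) value was in mouse 3. That library also had the highest macrophage marker sum, 128 CPM, and the part of macrophage RNA in the Onecut1 difference was not tested. All 15 macrophage markers had log2 fold changes above 0, with a median of 1.09, or 1.14 after the length and GC correction. Of the 15, 0 passed by edgeR or DESeq2, and 1 had an unadjusted p under 0.05. Among all tested genes 49.2% were above 0 and 28.7% had an unadjusted p under 0.05. The means were 14.5 ± 5.91 CPM in TERT(High) cells, against 4.82 ± 0.63 in TERT(Low) cells (SD, n = 3 each), a ratio of 3.02. On the log2 scale the fold change was 1.59 (SE 0.31; adjusted p = 0.0353 by edgeR), and 1.27, 1.24 and 2.07 within mice 1, 2 and 3. Onecut1 (Entrez gene 15379) lies on the plus strand of chromosome 9, 74861921 to 74889648. The non-coding gene Gm20649 is annotated across the whole of it on the same strand, and reads in bases they share cannot be assigned to either.

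Onecut2, the paralog of Onecut1, did not pass the test. It had 32.9, 31.1 and 45.5 CPM in TERT(High) cells of mice 1, 2 and 3, against 7.97, 20.98 and 17.7 CPM in TERT(Low) cells. The groups did not overlap, and the difference was smallest in mouse 2, at 0.57 on the log2 scale, and largest in mouse 1, at 2.05. The log2 fold change was 1.23 (SE 0.37) with an edgeR adjusted p of 0.0834 and an unadjusted p of 0.0133. DESeq2 passed it (adjusted p = 0.00955), as it did Onecut1 (5.61e-05) and Prox1 (5.96e-05), in a test that called 13.6% of genes higher. Onecut2 (Entrez gene 225631, chromosome 18, 64340032 to 64398488) has the longest transcript of the 9 with a GC content of 42.6%. In the authors' deposited table the log2 fold changes were 1.56 for Prox1, 1.34 for Onecut1 and 1.13 for Onecut2, with adjusted p of 8.64e-12, 6.76e-07 and 0.000445. That table was made from the same 6 libraries and is not independent of the counts.

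Differences followed transcript length across the whole table. The median log2 fold change was 0.48 over the 4195 genes with transcripts of 3883 nt or longer, and -0.35 over the 4196 genes with transcripts of up to 2213 nt. Transcripts of Onecut1, Prox1 and Onecut2 are 3957, 7913 and 16234 nt long. Removing from each library its trend with transcript length and GC content left the log2 fold change of Onecut1 at 1.40 (SE 0.26) and that of Prox1 at 1.07 (SE 0.51). That of Onecut2 became 0.08 (SE 0.58). With this correction edgeR called 0 genes in all (0.0%), while 1015 genes above 0 and 442 below had an unadjusted p under 0.05. The unadjusted p was 0.00102 for Onecut1, 0.0750 for Prox1 and 0.887 for Onecut2. DESeq2 on corrected counts called Onecut1 (adjusted p = 0.00097) and not Prox1 (0.286), where 2.28% of all genes were called higher. With the mouse as a block it called Onecut1, Prox1 and Cebpb, where 5.68% were called higher, with adjusted p of 0.000103 for Onecut1 and 0.000147 for Prox1. edgeR called 0 genes when any library other than TERT(High) of mouse 1 was left out, while 1515 to 1958 genes above 0 and 1295 to 1507 below had an unadjusted p under 0.05. Over all 6 such fits the log2 fold changes ran from 1.23 to 1.77 for Onecut1 and from 1.34 to 2.00 for Prox1. Their unadjusted p were at most 0.00707 and 0.00985 in those fits.

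**Figure D2:**
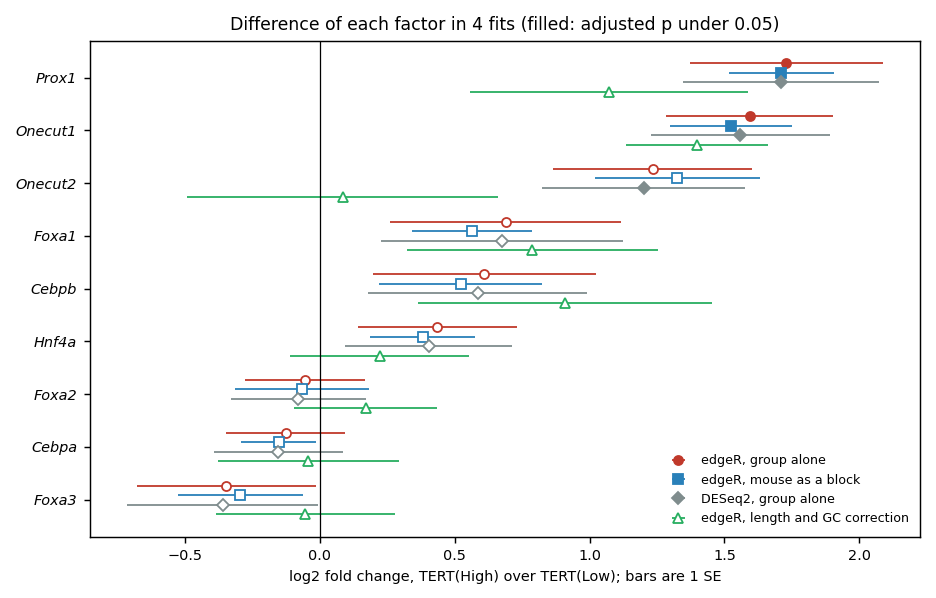
Log2 fold change of each factor, TERT(High) over TERT(Low), with bars of 1 SE, in 4 fits named in the legend; filled symbols passed an adjusted p under 0.05. Prox1 and Onecut1 stay above 1 in all 4, Onecut2 is at 0.08 with the length and GC correction, and none of the other 6 factors is filled in any fit.

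Promoters are shown for Onecut1 and Prox1, the factors that passed, and for 1 of the 2 factors, Hnf4a and Foxa2, with a window that holds a match to the ONECUT letters. RefSeq windows on GRCm38.p6, from 250 bases before to 50 bases after a start, were taken for 8 of the 9 factors. Onecut2 was left out, so its promoter was not searched. Each window was searched on both strands for CAAAGTNCA (HNF4), TGTTTAC or TGTTTGC (FOXA), ATCGAT or ATTGAT (ONECUT) and TTGCNNAA (C/EBP). Of 32851 windows of the same length 1.41%, 8.48%, 8.40% and 10.8% held a match to the HNF4, FOXA, ONECUT and C/EBP letters. Capitals mark the matches, and each sequence runs 5′ to 3′ on the strand of its gene. The Onecut1 window is chr9:74861671-74861970 (plus strand), the outer Prox1 window chr1:190170778-190171077 and the inner one chr1:190169466-190169765 (both minus strand), and the Hnf4a window, at the upstream of its 2 starts, chr2:163506607-163506906 (plus strand).
Onecut1: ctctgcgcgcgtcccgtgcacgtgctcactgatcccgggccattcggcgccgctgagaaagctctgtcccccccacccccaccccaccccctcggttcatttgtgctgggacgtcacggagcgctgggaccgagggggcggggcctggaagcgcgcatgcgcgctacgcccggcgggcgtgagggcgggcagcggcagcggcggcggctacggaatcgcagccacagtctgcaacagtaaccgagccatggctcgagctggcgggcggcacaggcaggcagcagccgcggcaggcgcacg
Prox1, outer start: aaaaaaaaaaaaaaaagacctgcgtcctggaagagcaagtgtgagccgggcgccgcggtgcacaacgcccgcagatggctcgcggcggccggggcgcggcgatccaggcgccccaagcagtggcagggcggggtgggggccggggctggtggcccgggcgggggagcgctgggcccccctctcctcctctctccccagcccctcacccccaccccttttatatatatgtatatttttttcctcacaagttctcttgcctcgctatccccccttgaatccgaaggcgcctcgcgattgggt
Prox1, inner start: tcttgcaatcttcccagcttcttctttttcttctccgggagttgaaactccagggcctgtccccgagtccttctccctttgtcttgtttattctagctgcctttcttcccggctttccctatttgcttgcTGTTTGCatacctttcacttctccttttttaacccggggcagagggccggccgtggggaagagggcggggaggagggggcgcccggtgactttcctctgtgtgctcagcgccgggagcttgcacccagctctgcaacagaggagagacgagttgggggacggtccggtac
Hnf4a, upstream start: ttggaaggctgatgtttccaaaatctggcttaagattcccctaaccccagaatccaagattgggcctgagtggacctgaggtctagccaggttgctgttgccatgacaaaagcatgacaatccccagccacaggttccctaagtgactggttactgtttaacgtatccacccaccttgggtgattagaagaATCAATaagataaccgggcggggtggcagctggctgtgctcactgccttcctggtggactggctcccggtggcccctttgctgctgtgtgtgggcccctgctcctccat
The Onecut1 and outer Prox1 windows hold none of the letters searched, and 38 and 25 CpG, against a median of 7 CpG over all windows. The inner Prox1 window holds 1 FOXA match, TGTTTGC, 120 bases before the start. The Hnf4a window holds 1 ONECUT match, ATCAAT as read on the gene's strand, 59 bases before the start. Among the 12 windows of the 8 factors there were 2 further matches, an ONECUT match in a Foxa2 window, ATTGAT, 213 bases before the start, and a FOXA match in the Foxa1 window, GTAAACA as read on the gene's strand, 141 bases before the start. A match is a description of the letters, and none of these windows was assayed for binding here.

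Hnf4a had the most counts of the 9 and exceeded its TERT(Low) level within each of the 3 mice, without passing the test. It had 312, 667 and 521 CPM in TERT(High) cells of mice 1, 2 and 3, against 306, 368 and 434 CPM in TERT(Low) cells. The groups overlapped, since the TERT(High) library of mouse 1 was as low as its TERT(Low) partner. On the log2 scale the fold change was 0.44 (SE 0.30; adjusted p = 0.390 by edgeR), and 0.02, 0.86 and 0.26 within mice 1, 2 and 3. Without the TERT(High) library of mouse 2 it was 0.13, and without that of mouse 1 it was 0.64. Hnf4a (chromosome 2, 163506811 to 163572907) has an upstream start, P2, and a downstream start, P1, of which adult hepatocytes mainly use P1. Counts per gene do not separate them. The antisense gene Hnf4aos, which overlaps 34913 nt of Hnf4a on the opposite strand, had 1.57 ± 0.58 CPM in TERT(High) cells, against 2.37 ± 1.04 in TERT(Low) cells.

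None of the 3 Foxa genes passed the test. Foxa1 had 22.1, 6.90 and 12.3 CPM in TERT(High) cells of mice 1, 2 and 3, against 10.6, 6.45 and 8.52 CPM in TERT(Low) cells. It was higher in all 3 mice, by 1.06, 0.10 and 0.52 on the log2 scale, and the groups overlapped (log2 fold change 0.69, SE 0.43, edgeR adjusted p = 0.348). Without the TERT(High) library of mouse 1 its log2 fold change was 0.11, and that library also had the highest stellate and erythroid marker sums, whose part in the Foxa1 values was not tested. Foxa2 had 25.5, 17.5 and 27.8 CPM in TERT(High) cells, against 21.9, 29.3 and 22.3 CPM in TERT(Low) cells, and its log2 fold change was -0.05 (SE 0.22, adjusted p = 0.897). Foxa3 had 45.7, 48.0 and 30.2 CPM in TERT(High) cells, against 78.8, 39.5 and 39.2 CPM in TERT(Low) cells. The TERT(Low) library of mouse 1 stood above the other 5 for Foxa3, and the log2 fold change was -0.35 (SE 0.33, adjusted p = 0.551), or 0.07 without that library. Per length, Foxa3 made up most of the Foxa RNA, with 56.3 ± 11.6% in TERT(High) and 62.3 ± 9.96% in TERT(Low) cells, and Foxa1 the least, with 11.6 ± 5.16% in TERT(High) and 6.73 ± 1.28% in TERT(Low) cells (SD, n = 3 each).

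Cebpa did not differ beyond the spread between libraries. It had 167, 284 and 236 CPM in TERT(High) cells of mice 1, 2 and 3, against 222, 281 and 246 CPM in TERT(Low) cells, and its log2 fold change was -0.13 (SE 0.22; adjusted p = 0.739 by edgeR). Mouse 2 had the highest level in both groups. Cebpb had 29.0, 86.1 and 55.8 CPM in TERT(High) cells, against 36.4, 48.8 and 26.7 CPM in TERT(Low) cells. It was lower in TERT(High) cells of mouse 1 and higher in those of mice 2 and 3, and the log2 fold change over all 6 libraries was 0.61 (SE 0.41, adjusted p = 0.390). Without the TERT(High) library of mouse 2 it was 0.15, and without that of mouse 1 it was 0.89. After the length and GC correction the value was 0.91 (SE 0.54, adjusted p = 0.568). Cebpb has the highest GC content of the 9 transcripts, 67.2%, and the shortest length, 1504 nt. Its 5′ part overlaps 908 nt of Tmem189 on the opposite strand, which had 11.6 ± 0.53 CPM in TERT(High) cells, against 14.8 ± 2.11 in TERT(Low) cells, and the strand setting of the counting is not given in the sources used here.

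Ratios of a pair of factors within a library do not depend on the scaling between libraries. The count of Hnf4a over that of Prox1 was 13.5, 14.2 and 19.05 in TERT(High) cells of mice 1, 2 and 3, against 32.1, 28.1 and 64.3 in TERT(Low) cells. The groups did not overlap, and the mean log2 ratio differed by -1.33. By an exact permutation test, two-sided, p was 0.1, the smallest that 3 against 3 libraries allow, and 0.5 after adjustment over the 5 ratios computed. The count of Cebpb over that of Cebpa was 0.173, 0.303 and 0.237 in TERT(High) cells, against 0.164, 0.173 and 0.108 in TERT(Low) cells. Within each of the 3 mice it was higher in TERT(High) cells, by a mean of 0.67 on the log2 scale, and the groups overlapped by a narrow margin (exact permutation p = 0.2, adjusted 0.5). The log2 ratio of Foxa1 to Foxa2 differed by 0.63, that of Foxa3 to Foxa2 by -0.22 and that of Onecut2 to Onecut1 by -0.20, with exact permutation p of 0.4, 0.8 and 0.8. The ratio of Onecut2 to Onecut1 was less even in TERT(Low) cells, from 1.50 to 5.11, than in TERT(High) cells, from 2.15 to 3.21.

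Set per length of transcript, the 9 factors covered a wide range of levels in the same cells. Hnf4a had 115 ± 41.1 CPM per kb in TERT(High) and 84.8 ± 14.7 CPM per kb in TERT(Low) cells. Cebpa had 87.2 ± 22.2 CPM per kb in TERT(High) and 95.2 ± 11.3 CPM per kb in TERT(Low) cells, and the 2 genes overlapped in both groups. In TERT(High) cells Cebpb, Foxa3, Foxa2 and Foxa1 followed, with 37.9, 20.3, 11.4 and 4.31 CPM per kb. In TERT(Low) cells the order of these 4 was Foxa3, Cebpb, Foxa2 and Foxa1, with 25.8, 24.8, 11.8 and 2.67 CPM per kb, and Foxa3 and Cebpb overlapped in each group. Prox1, Onecut1 and Onecut2 were lowest, with 4.11, 3.67 and 2.25 CPM per kb in TERT(High) and 1.24, 1.22 and 0.957 CPM per kb in TERT(Low) cells. Each of these 3 overlapped the next in both groups. In TERT(High) cells Foxa1 overlapped Prox1, and in TERT(Low) cells Foxa1 was above Prox1 in every library. These levels use the length of the transcript of longest coding sequence.

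**Figure D3:**
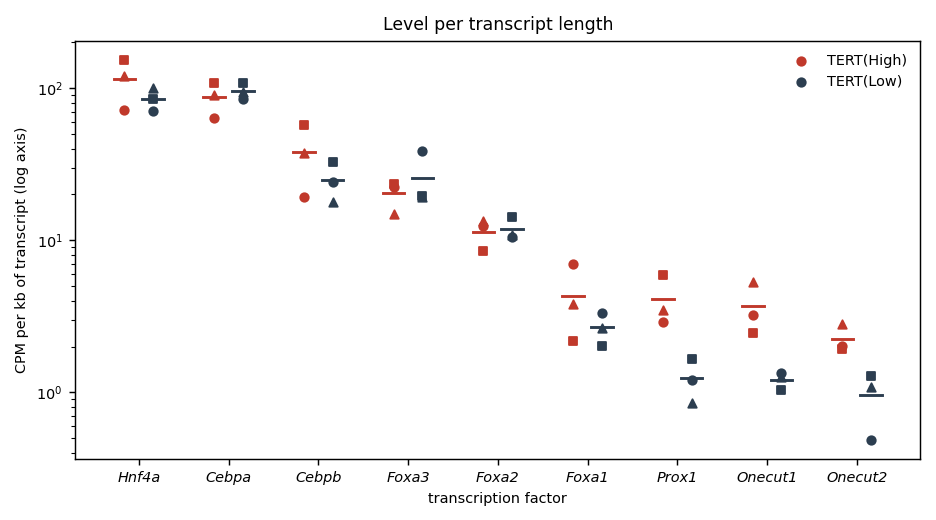
CPM per kb of transcript (log axis) of each factor in TERT(High) and TERT(Low) libraries, with circles, squares and triangles for mice 1, 2 and 3 and lines for group means (n = 3 each). Hnf4a and Cebpa are the most abundant in both groups, and Prox1, Onecut1 and Onecut2 the least.

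The genes whose level followed each factor most closely over the 6 libraries were found by the root mean square difference of log2 CPM about the gene's own mean, among 13287 other tested genes. For Onecut1 these were Mrc1, the mannose receptor of macrophages and sinusoidal endothelium, at 0.14, and Ift74, at 0.17. For Onecut2 they were Clock, a core circadian activator, at 0.08, and the kinase gene Frk, at 0.16. Prox1 was followed by Tmem131 and Atf7ip, both at 0.17. Cebpa was followed by Mta2 at 0.04 and Aldh4a1 at 0.05, and Hnf4a by Eif4b at 0.03 and Kif20a at 0.07. Cebpb had Cluh at 0.05 and Arhgef19 at 0.08, and Foxa1 had Hspa13 at 0.08 and Epm2aip1 at 0.12. Foxa2 had Jam2 at 0.09 and Bcl6b at 0.09, and Foxa3 had Fancg at 0.12 and Fn3k at 0.13. Among the factors themselves the closest pair was Hnf4a and Cebpa, at 0.32, and the farthest was Foxa3 and Onecut2, at 1.17.

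Other transcription factors of the hepatocyte network did not pass the test in either direction. Of 30 listed genes 27 were tested, 0 rose and 0 fell by edgeR, 8 had an unadjusted p under 0.05, and 7 had TERT(High) values wholly above their TERT(Low) values. Over all tested genes 28.7% had an unadjusted p under 0.05, so that count is near the share of all genes, and 17.5% lay wholly above. By DESeq2 4 of them were higher and 0 lower, where 13.6% of all genes were higher and 11.3% lower. The list median was 0.33. Rxra, the dimer partner of many nuclear receptors, averaged 202 ± 48.5 CPM in TERT(High) cells, against 133 ± 25.4 in TERT(Low) cells (log2 fold change 0.60, SE 0.23, edgeR adjusted p = 0.139). Xbp1, a factor of the unfolded protein response, averaged 198 ± 41.8 CPM in TERT(High) cells, against 240 ± 27.8 in TERT(Low) cells (log2 fold change -0.27, SE 0.20, adjusted p = 0.425).

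Coregulators through which HNF4A, the FOXA proteins and PROX1 act had a median log2 fold change of 1.16, and 17 of the 18 tested were above 0. By edgeR 2 of the 18 passed the test, Ncoa2 and Nrip1, and 0 were lower. An unadjusted p under 0.05 was seen for 16 of the 18, and 9 had TERT(High) values wholly above their TERT(Low) values. Among all tested genes those shares were 28.7% and 17.5%, and edgeR called 4.43% higher. DESeq2 called 13.6% of all genes higher and 11.3% lower. Of the 18, DESeq2 called 11 higher and 1 lower. The lower one was Hdac3, a histone deacetylase, at 16.5 ± 1.52 CPM in TERT(High) cells, against 22.7 ± 0.98 in TERT(Low) cells. Ncoa2, a histone acetyltransferase-recruiting coactivator of nuclear receptors, averaged 15.7 ± 7.63 CPM in TERT(High) cells, against 4.39 ± 0.74 in TERT(Low) cells (log2 fold change 1.84, SE 0.39, adjusted p = 0.0411). Nrip1, a corepressor of nuclear receptors, averaged 3.92 ± 0.67 CPM in TERT(High) cells, against 1.16 ± 0.23 in TERT(Low) cells (log2 fold change 1.75, SE 0.26, adjusted p = 0.0277). The median of the list was 0.74 once length and GC content were corrected for. Of 22 tested partners and regulators of the C/EBP proteins 1 rose, Ep300, a histone acetyltransferase, at 8.31 ± 3.59 CPM in TERT(High) cells, against 2.10 ± 0.39 in TERT(Low) cells (log2 fold change 1.99, SE 0.38, adjusted p = 0.0346). The median of that list was 0.01, and DESeq2 called 3 of it higher and 1 lower.

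Of 40 tested genes that these factors are known to activate, edgeR called 2 higher and 0 lower, and the list median was -0.04. Over all tested genes edgeR called 4.43% higher and 3.71% lower, so the count of 2 is near the share of all genes. DESeq2 called 4 higher and 5 lower, the lower ones being Ttr, Apoa1, Apoc3, Apoh and Ahsg, which encode abundant plasma proteins. By edgeR the log2 fold changes of Apoa1, Apoc3 and Apoh were -0.54, -0.60 and -0.57. After the length and GC correction they were -0.04, -0.01 and -0.23, and that of Ttr was -0.44. Apob, the protein of very-low-density lipoproteins, averaged 2421 ± 357 CPM in TERT(High) cells, against 352 ± 90.3 in TERT(Low) cells (log2 fold change 2.78, SE 0.25, adjusted p = 0.0241). Abcb11, the bile salt export pump, averaged 266 ± 36.6 CPM in TERT(High) cells, against 121 ± 19.2 in TERT(Low) cells (log2 fold change 1.14, SE 0.18, adjusted p = 0.0277). With length and GC content corrected for, the log2 fold change was 1.96 for Apob and 0.69 for Abcb11. TERT(High) values lay wholly above TERT(Low) values for 5 of the 40 targets and wholly below for 6, and over all tested genes for 17.5% and 15.9%. DESeq2 called 13.6% of all genes higher and 11.3% lower. Ttr, the thyroxine carrier transthyretin, was at 5221 ± 551 CPM in TERT(High) cells, against 8403 ± 1620 in TERT(Low) cells (log2 fold change -0.69, SE 0.20). Its adjusted p was 0.0792 by edgeR, 0.00658 by DESeq2 and 0.0400 by limma-voom.

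The lists that respond to C/EBP beta and to cell isolation showed no call by edgeR. Of 18 acute phase genes 0 rose and 0 fell by edgeR, with a median log2 fold change of -0.38. DESeq2 called 1 of them lower, where 11.3% of all genes were lower. TERT(High) values lay wholly below TERT(Low) values for 2 of the 18 and wholly above for 0, and over all tested genes for 15.9% and 17.5%. Hp, which encodes haptoglobin, averaged 5864 ± 2136 CPM in TERT(High) cells, against 8534 ± 4190 in TERT(Low) cells. Itih4, a plasma protein, averaged 4450 ± 2632 CPM in TERT(High) cells, against 3342 ± 1871 in TERT(Low) cells. Of 17 tested immediate early genes 0 rose and 0 fell by edgeR or DESeq2, with a median of -0.16. At an unadjusted p under 0.05, 1 of the acute phase genes and 0 of the immediate early genes passed, against 28.7% of all tested genes. Jund, an AP-1 subunit, averaged 98.1 ± 6.25 CPM in TERT(High) cells, against 91.5 ± 19.02 in TERT(Low) cells, and Zfp36, which destabilises mRNA, 50.3 ± 14.9 CPM in TERT(High) cells, against 56.4 ± 37.3 in TERT(Low) cells.

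Markers of bile duct cells and of the fetal liver were given because Onecut1 and Onecut2 also act in both. Of 9 tested bile duct and progenitor markers 0 rose and 0 fell by edgeR, 1 passed at an unadjusted p under 0.05, and 1 was lower by DESeq2. The last 2 shares over all genes were 28.7% and 11.3%. Sox9, a bile duct factor, was at 0.884 ± 0.098 CPM in TERT(High) cells, against 1.23 ± 0.77 in TERT(Low) cells, and Epcam, a surface marker of duct cells, was at 0.044 ± 0.050 CPM in TERT(High) cells, against 0.044 ± 0.061 in TERT(Low) cells. Aqp1, a water channel of ducts and vessels, was at 16.7 ± 1.75 CPM in TERT(High) cells, against 18.1 ± 1.16 in TERT(Low) cells. Tnfrsf12a, a receptor of the progenitor response, was at 10.8 ± 3.39 CPM in TERT(High) cells, against 20.2 ± 2.91 in TERT(Low) cells (log2 fold change -0.91, SE 0.26, adjusted p = 0.0786). Of 6 tested fetal liver genes 0 rose and 0 fell by edgeR or DESeq2 and 0 passed at an unadjusted p under 0.05. Slc38a4, an amino acid transporter, was at 515 ± 72.5 CPM in TERT(High) cells, against 509 ± 67.0 in TERT(Low) cells, and Meg3, a non-coding RNA, at 4.33 ± 6.86 CPM in TERT(High) cells, against 9.45 ± 9.31 in TERT(Low) cells.

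**Figure D4:**
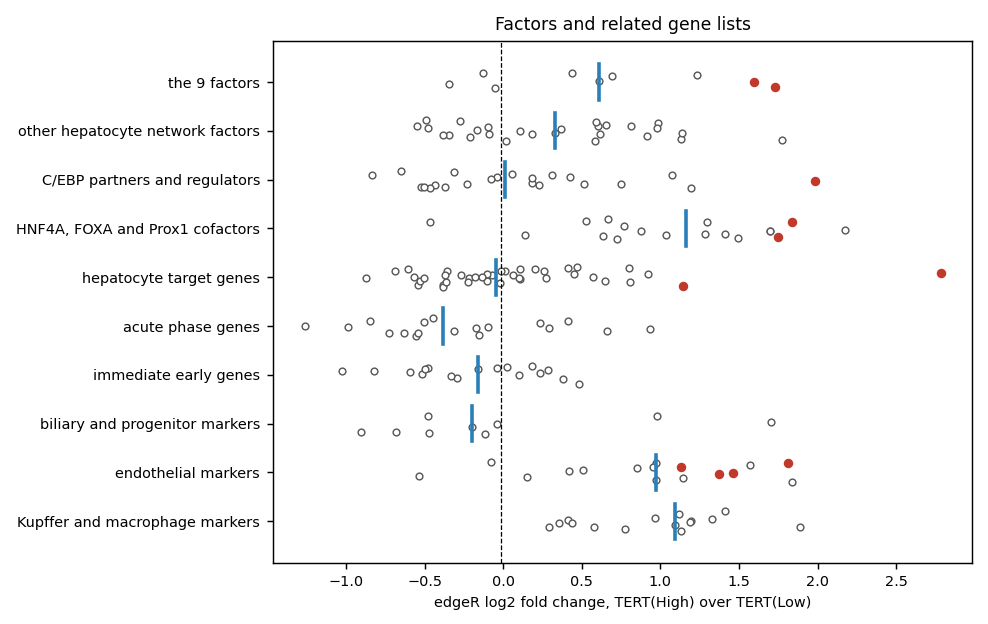
Log2 fold change, TERT(High) over TERT(Low), of each tested gene in 10 lists; filled points passed an adjusted p under 0.05, blue bars are list medians and the dashed line is the median of all tested genes, -0.01. The 9 factors spread from -0.35 to 1.73, the coregulators have a median of 1.16 and the target genes one of -0.04.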

How the data were processed

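RNA was sequenced from 6 libraries, 1 of TERT(High) and 1 of TERT(Low) hepatocytes from each of 3 mice, prepared with a stranded mRNA kit per the labels' protocols. Reads were trimmed with Trim Galore 0.4.0 and aligned with TopHat2 2.0.13 to mm10, per the submitters' processing notes, which also name DESeq2. How reads were counted, on which strand and with which annotation, is not given here. The authors deposited raw counts per gene for 15565 genes. The authors' deposited table of their own comparison holds log2 fold changes with their linear ratio, p-values, a test statistic (a score) and a mean of size-factor-scaled counts (a signal), per the file headers. Only its log2 fold changes and adjusted p are quoted.

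Genes were filtered with filterByExpr in edgeR 4.0.16 (R 4.3.3), which left 13288, and scaled by TMM. TERT(High) and TERT(Low) were compared by the robust quasi-likelihood test over all 6 libraries, with Benjamini-Hochberg adjustment and a threshold of 0.05. The SE is the log2 fold change divided by the root of the F statistic. The test was checked on simulated data made from these libraries, with 200 genes changed among 13288. There it recovered 0.508%, 6.12% and 55.8% of genes changed 1.5-fold, 2-fold and 4-fold. Larger numbers of changed genes were not simulated, and the adjusted p can pass more readily when more genes differ. Depth was 53585174 to 76164917 counts a library. The p-values set the difference between groups against the spread between libraries, and the reported fit did not use the pairing by mouse.

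The labels place both populations of a mouse under 1 number. Deviations of same-numbered libraries correlated at -0.12, 0.769 and 0.671 for mice 1, 2 and 3. The mouse as a block was an alternative, as were DESeq2 1.42.0, limma-voom (limma 3.58.1), other scalings and filters, removal of a spline (4 degrees of freedom) in transcript length and GC content, and leaving out libraries or mice. Length and GC content came from GENCODE transcripts and were found for 93.38% of genes. DESeq2 with that correction and DESeq2 with libraries left out were added after seeing the data. Promoters and gene positions are from RefSeq on GRCm38.p6. Ratios used counts plus 0.5 and exact two-sided permutation tests.

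The 9 factors and the gene lists were chosen with earlier results of these data known. Named genes were all 9 factors, the 2 genes most like each, and genes from the lists. From a list these were the largest changes among genes that passed with the same sign in every mouse. Where none passed, they were the 2 genes of highest mean CPM, whatever their direction. The Sox9, Epcam, Ttr, Alb, Hdac3, Apoa1, Apoc3, Apoh, Ahsg and S100a9 results were named after they were seen.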

Additional observations from a re-analysis of the deposited data

How the results depend on the processing

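Onecut1 and Prox1 kept their direction in all 29 alternative fits and passed in 19 and 18 of them. Onecut2 kept its direction in 29 and passed in 9. Hnf4a, Foxa1 and Cebpb kept their direction in 29, Foxa3 in 27, Cebpa in 26 and Foxa2 in 18. The count of genes called was 1081 in the reported fit, and 2822 by DESeq2, 3133 by DESeq2 with the mouse as a replicate block, 2477 by limma-voom with sample weights, 647 with library totals alone and 1734 with a filter of 1 CPM in every library. With the mouse as a replicate block edgeR called 1292 genes, and the block changed no call among the 9 factors. With library totals alone the median of all genes shifted to 0.14 and the calls were 628 higher and 19 lower, against 588 higher and 493 lower with TMM and 542 higher and 712 lower with upper-quartile scaling.

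With the length and GC correction edgeR called 0 genes and 0 of the 9 factors, with or without the replicate block. An unadjusted p under 0.05 was seen for 1015 genes above 0 and 442 below without the block, and for 1744 and 807 with it. Onecut1 was then at 1.40 (adjusted p = 0.254), or 1.36 with the block (0.066), and Prox1 at 1.07 (0.488), or 1.09 with the block (0.066). DESeq2 with the correction called 358 genes, 1 of them a factor, with Prox1 at 1.06. With the correction and the replicate block DESeq2 passed Cebpb at 0.84. The cause was not tested.

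Onecut2 passed at 1.20 by DESeq2, 1.30 by DESeq2 with the replicate block, 1.61 by limma-voom and 1.27 with the stricter filter. Leaving out 1 library gave 0 to 1650 genes called by edgeR and 0 to 2 factors, with Onecut1 between 1.23 and 1.77 and Prox1 between 1.34 and 2.00. The 1650 genes and 2 factors came without the TERT(High) library of mouse 1, and the other 5 libraries gave 0. DESeq2 without 1 library called 1596 to 3267 genes, with 1961, 2047, 2056 and 2111 between them, and 5 factors without the TERT(High) library of mouse 1, where Hnf4a was at 0.64 and Cebpb at 0.89. Without the TERT(High) library of mouse 2, Hnf4a was at 0.13 and Cebpb at 0.15 by edgeR, and at 0.12 and 0.14 by DESeq2. Onecut2 passed in 5 of those 6 fits, at 0.88, 1.25, 1.29, 1.31 and 1.47. Leaving out both libraries of a mouse gave 0 genes and 0 factors by edgeR, while 1071 to 1921 genes above 0 and 748 to 1515 below had an unadjusted p under 0.05. Onecut1 was then at 1.24, 1.71 and 1.75 and Prox1 at 1.62, 1.64 and 1.91. With 3 libraries a group, most 2-fold changes were missed in the simulated data, which held 200 changed genes. The reported fit called 1081 genes, so the share of 2-fold changes missed in the measured data is not known from that check.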
